A study of Mus musculus with 6 samples.

Results

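The BCL2 family decides at the outer membrane of mitochondria whether a cell enters apoptosis. The 10 genes described here were found as the rows of the expression table whose gene symbol was Bcl2, Bcl2l1, Bcl2l2, Mcl1, Bak1, Bcl2l11, Bid, Bad, Bik or Bmf. All 10 symbols matched exactly 1 row each of the 27179 genes in the table. The relatives Bax, Bbc3 and Pmaip1, which are known as p53 targets, are not among the 10 and appear only as other members of the wider family. RNA was sequenced from cultures of B16F10, an established mouse melanoma line labelled wild type. In the OZO group, 3 cultures received 0.01% ozonated olive oil for 6 h, and in the OLO group 3 cultures received 0.01% olive oil without ozone for 6 h.

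The values analysed here are 1 mean per gene over all 6 libraries, on the log2 scale of CPM (reads of a gene scaled to the size of the library). They are the authors' mean over both treatments. Levels in OZO-treated and in OLO-treated cells were not analysed separately, so no difference between the treatments is given, and the spread between cultures is unknown. A mean in bulk RNA also cannot tell RNA per cell from the share of cells that make it.

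Proteins of this family fall into 3 roles. Anti-apoptotic members hold the others in check, effectors form pores in the outer membrane, and BH3-only members sense stress and set the effectors free. Members recognise each other through the BH3 segment, a short helix that fits into a groove of the anti-apoptotic proteins. Melanocytes and melanoma cells are known to depend on anti-apoptotic members, some of which are targets of the melanocyte factor MITF.

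Because the BH3 segment is what these genes share, its coding sequence is shown for each of the 10 members. The sequences come from the GENCODE M21 transcript with the longest coding sequence (GRCm38) and are printed 5′ to 3′ in the direction of translation. Capitals mark 6 codons of the core, which were found by a search of the reading frame, in the coding direction only, for a codon of leucine, methionine or valine, then any 3 codons, then a codon of glycine, alanine or serine, then one of aspartate.
Mcl1: gagaccCTGCGGCGCGTGGGCGACggcgtg
Bcl2: ctgaccCTCCGCCGGGCTGGGGATgacttc
Bcl2l1: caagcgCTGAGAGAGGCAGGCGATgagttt
Bcl2l2: caagccATGCGGGCTGCTGGAGACgagttt
Bak1: cggcagCTTGCTCTCATCGGAGATgatatt
Bcl2l11: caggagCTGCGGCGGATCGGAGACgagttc
Bid: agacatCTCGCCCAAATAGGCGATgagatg
Bad: cgtgagCTCCGAAGGATGAGCGATgagttt
Bik: ttgaggCTGGCCTGCATCGGCGATgagatg
Bmf: agaaagCTTCAGTGTATTGCAGACcagttc

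Each of the 10 coding sequences held the core exactly once. The search was accepted only if it gave as many matches as members, and its allowed codons include those of Bcl2l2, Bad and Bmf. The match in all 10 members is therefore not an independent result. The pattern is short, and 33.5% of the 4524 protein-coding genes with reads and 150 to 331 codons, the range of the members, also held it at least once. It started at codon 194 of 331 in Mcl1, at codon 94 of 236 in Bcl2 and at codon 46 of 193 in Bcl2l2. Among BH3-only members it started at codon 150 of 196 in Bcl2l11 and at codon 55 of 150 in Bik. Bcl2l2 was the member whose core opened with a methionine codon, and Bad and Bmf were the members with a serine and an alanine codon, respectively, in place of glycine. Of the 18 bases of the core, 3 are fixed by the search itself, and no other base was identical in all members. The 45 pairs of members shared from 5 to 14 bases, these 3 included, with a median of 10. The closest pair joined 2 roles, since Mcl1 and Bcl2l11 shared 14 of 18 bases.

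Of the 10 members, 9 were present at 1 CPM or more, against 56.2% of the 21154 genes with reads in at least 1 library. The median of the 10 members was 4.87 on the log2 CPM scale, and the median of all genes with reads was 1.45. Mcl1 was the most abundant member and Bik was nearly absent. The scaled libraries had a geometric mean of 19641946 reads, so that 1 CPM stood for 19.6 reads. Levels of different genes are compared below per kb of exon, as CPM divided by the summed length of all annotated exons of a gene. The gene models used to count reads are not named in the sources used here. The lengths, from GENCODE M21, may therefore differ from the exons that were counted. Intervals given with these levels are exact Poisson intervals (95%) for counting error only. They leave out the spread between cultures and any error in length.

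**Figure D1:**
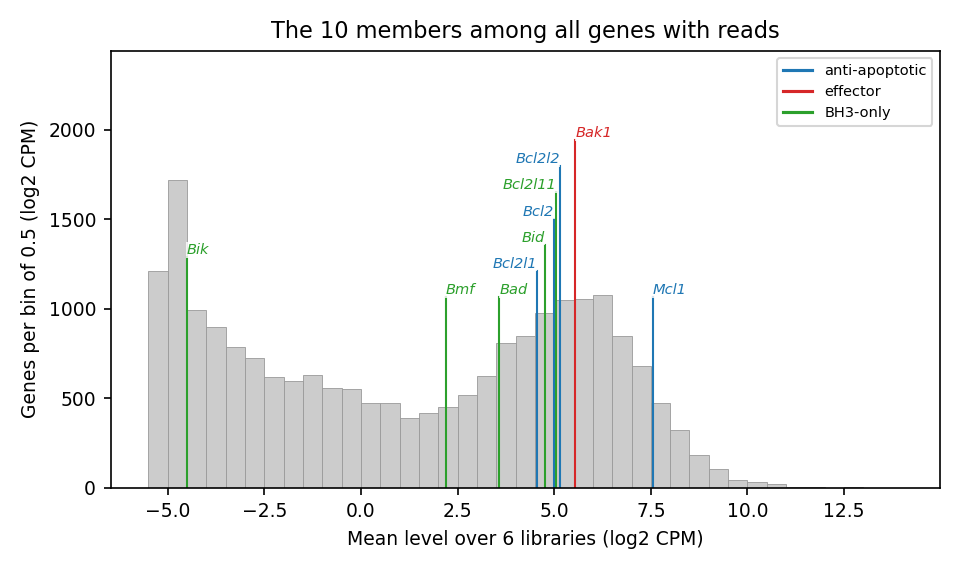
Number of genes with reads in bins of 0.5 on the log2 CPM scale (grey bars), with a vertical line at the mean level of each of the 10 members, coloured by role. Mcl1 lies at 7.55, 8 members lie between 2.19 (Bmf) and 5.55 (Bak1), and Bik lies at -4.50, where many genes with a few reads are found.

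Among the anti-apoptotic members, Mcl1 led. It encodes a protein known for its rapid turnover that binds the products of Bak1 and Bcl2l11. Mcl1 (ENSMUSG00000038612) lies on chromosome 3 of GRCm38 from 95658788 to 95663176 on the plus strand, where no other annotated gene overlaps it. Its mean level was 7.55 on the log2 CPM scale, or 187 CPM, which rested on a geometric mean of 3676 reads per library (with the 0.5 reads that voom adds). Per length this was 54.8 CPM per kb (interval 54.0 to 55.5), a level above 96.3% of the genes with reads and a known length. Mcl1 alone made up 76.8% of the summed CPM per kb of the 4 anti-apoptotic members and 50.7% of that of all 10 members.

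The 3 other anti-apoptotic members were present at much lower levels. Bcl2l2, which encodes BCL-W, had a mean of 35.3 CPM and 7.92 CPM per kb (interval 7.68 to 8.16). Bcl2l2 (ENSMUSG00000089682) lies on chromosome 14 from 54883377 to 54888234, and Gm20521, an annotated protein-coding gene on the same strand, covers 4794 bases of it. Gm20521 is not among the genes with a level here, so RNA from it could be counted as Bcl2l2. Bcl2l1, which encodes BCL-XL, had 23.4 CPM and 5.11 CPM per kb (interval 4.92 to 5.30). Bcl2l1 (ENSMUSG00000007659) lies on chromosome 2 from 152780668 to 152831728 on the minus strand. Bcl2, the founding member, had 31.9 CPM and 3.48 CPM per kb (interval 3.37 to 3.59), the lowest level of its role per kb of exon. Per kb of coding sequence Bcl2l1 was the lowest, with 33.5 CPM per kb against 45.0 for Bcl2. This scale divides all reads of a gene, those from UTRs included, by the coding length alone. It therefore raises genes with long UTRs more than others and can change their order. Bcl2 (ENSMUSG00000057329) lies on chromosome 1 from 106538178 to 106714274 on the minus strand and has the longest summed exons of the 10 members, 9157 bases.

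Mcl1 exceeded Bcl2 15.7-fold in CPM per kb of all exons. The size of this ratio depended on how length was taken, and it was 12.4-fold per kb of the longest transcript and 4.19-fold per kb of the longest coding sequence. Against Bcl2l2, the second of its role, Mcl1 was 6.92-fold higher per kb of all exons and 3.09-fold higher per kb of coding sequence. Mcl1 ranked first of the 10 members with each of these 3 lengths.

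Bak1 was the effector among the 10 members. It encodes a pore-forming protein that resides in the outer membrane. Bak1 (ENSMUSG00000057789) lies on chromosome 17 from 27019810 to 27029009 on the minus strand, and its mean level was 46.8 CPM, with 919 reads per library. At 19.4 CPM per kb (interval 18.9 to 20.0) it ranked second after Mcl1, which exceeded it 2.82-fold. Ggnbp1 on the opposite strand spans the whole gene but had only 1.02 CPM itself.

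Bax, the other main effector, moves from the cytosol to mitochondria when activated. It had 42.3 CPM and 26.8 CPM per kb, and so stood 1.38-fold above Bak1 per kb of all exons. Per kb of coding sequence the ratio was 0.984, so the order of both effectors turned with the length used. Bok, a further relative of this type, had 0.0868 CPM, with at least 9 reads over the 6 libraries.

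The 5 BH3-only members ranged from moderate levels to a handful of reads. Bid, which links death receptors to mitochondria after it is cut by caspase 8, had 26.9 CPM and 7.59 CPM per kb (interval 7.32 to 7.85). Bid (ENSMUSG00000004446) lies on chromosome 6 from 120891930 to 120916853 on the minus strand. It overlaps Bcl2l13, a divergent relative on the opposite strand with 167 CPM, by 913 bases. Overlaps given here are of whole gene spans, and whether exons lie in them was not examined. Strand use in counting is not given in the sources used here, so any reads from this stretch could belong to either gene.

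Bad, which survival signals keep in check through phosphorylation, had 11.9 CPM and 4.67 CPM per kb (interval 4.43 to 4.92). Bad (ENSMUSG00000024959) lies on chromosome 19 from 6941861 to 6951899 and overlaps Gpr137 on the opposite strand, which had 11.4 CPM, by 620 bases. Bcl2l11 (ENSMUSG00000027381) encodes BIM, an activator of the effectors that growth factor signals hold down. Its mean was 33.1 CPM and 4.12 CPM per kb (interval 4.0 to 4.26), and it lies on chromosome 2 from 128126038 to 128162547.

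Bmf, a sensor tied to the actin cytoskeleton, was lower at 4.57 CPM, with 89.7 reads per library and 0.869 CPM per kb (interval 0.797 to 0.946). Bmf (ENSMUSG00000040093) also lies on chromosome 2, from 118528757 to 118549687, and chromosome 2 holds 3 of the 10 members. Bmf was above the median of genes with reads on the CPM scale but below it per length, where the median was 1.47 CPM per kb.

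Bik, a member that resides at the endoplasmic reticulum, had almost no reads. Bik (ENSMUSG00000016758) lies on chromosome 15 from 83526862 to 83544634. Because voom adds 0.5 reads to every count before it averages, the mean of such a gene holds whole numbers of reads, and that of Bik allowed 3 to 13 reads in all 6 libraries together, spread over 1 to 3 libraries. Its printed level of -4.50 on the log2 CPM scale is mostly this added 0.5, and no fold is given against it.

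**Figure D2:**
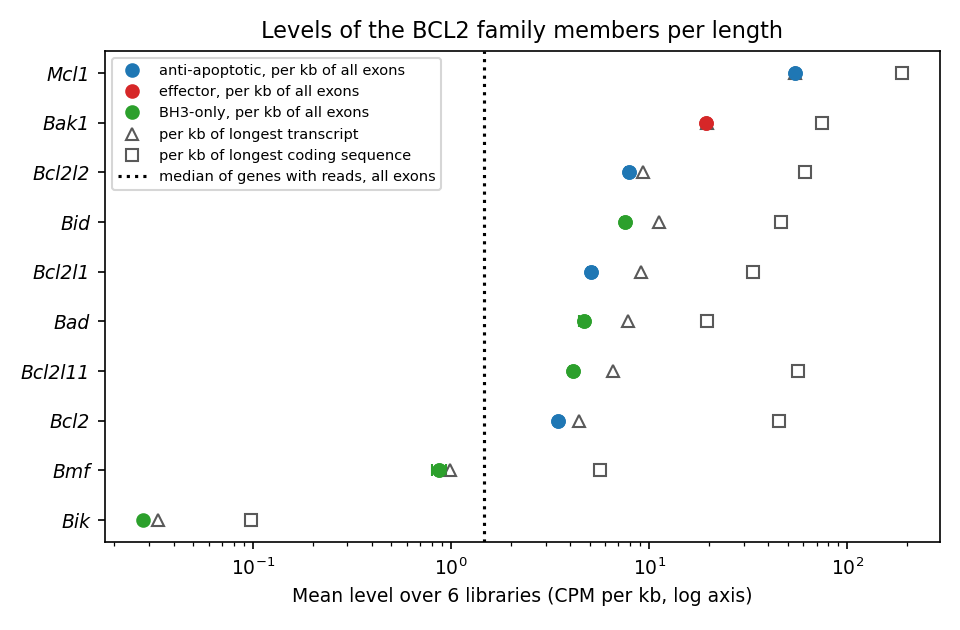
Mean level of each member over the 6 libraries in CPM per kb on a log axis, ordered by level. Filled points use all exons and carry 95% counting intervals (none for Bik), and open symbols use the longest transcript or coding sequence. The dotted line is the median of genes with reads and a known length per kb of all exons (1.47). It is a reference for the filled points only. Mcl1, Bak1, Bmf and Bik keep their place with all 3 lengths, and the other 6 members trade places between them.

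In order of CPM per kb, Mcl1 was followed by Bak1, Bcl2l2, Bid, Bcl2l1, Bad, Bcl2l11, Bcl2, Bmf and Bik. Of the 8 neighbouring pairs in which both members have a counting interval, 2 had intervals that overlapped, Bcl2l2 with Bid and Bcl2l1 with Bad. In 2 of all 9 neighbouring pairs the order turned with another length, since Bid exceeded Bcl2l2 per kb of the longest transcript and Bcl2l11 exceeded Bad per kb of coding sequence. Since the spread between cultures is unknown, none of these neighbours was tested.

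Summed by role, the anti-apoptotic members reached 71.3 CPM per kb, Bak1 19.4 and the BH3-only members 17.3. The order of Bak1 and the BH3-only sum turned with the scale, with 19.6 against 26.5 CPM per kb of the longest transcript, 74.6 against 128 CPM per kb of coding sequence and 46.8 against 76.6 CPM before division by length. The anti-apoptotic sum was 4.13-fold the BH3-only sum per kb of exon, 2.92-fold per kb of the longest transcript, 2.57-fold per kb of coding sequence and 3.63-fold before division by length. This ratio rested on Mcl1. Without it, a choice made after its value was seen, the 3 other anti-apoptotic members summed to 16.5 CPM per kb, 0.955 of the BH3-only sum. Which of these sums was higher turned with the scale, since the ratio without Mcl1 was 0.860 per kb of the longest transcript, 1.09 per kb of coding sequence and 1.18 before division by length. These are sums of RNA and not of protein.

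The wider family added few genes at an appreciable level. Of 13 other relatives, 4 were at 1 CPM or more, against 56.2% of all genes with reads, and the median of the 13 was -2.68 on the log2 CPM scale. None of the 4 other anti-apoptotic genes reached 0.1 CPM, namely Bcl2a1a, Bcl2a1b, Bcl2a1d and Bcl2l10. The human counterpart of the Bcl2a1 genes is a known survival gene of melanoma, but in these cells Bcl2a1d had no read, Bcl2a1a had 1 and Bcl2a1b had 2 to 4 in all 6 libraries. Bcl2l10 also had 2 to 4 reads. The Bcl2a1 copies are nearly identical, so reads that match several of them may not have been counted.

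Among the 3 other BH3-only genes, Bbc3, which encodes PUMA, had 3.29 CPM and 1.55 CPM per kb. Pmaip1, which encodes NOXA, had 1 read in the 6 libraries, and Hrk had a mean of 0.156 CPM. With the wider family included, the ratio of the anti-apoptotic to the BH3-only sum was 3.79 per kb of all exons. It was 2.74 per kb of the longest transcript, 2.45 per kb of coding sequence and 3.47 before division by length. The effector sum rose from 19.4 to 46.3 CPM per kb of all exons through Bax. Bcl2l13, a divergent relative that acts as a mitophagy receptor, had the highest CPM of the wider list, 167, and lay below Bax per kb of exon (18.4 against 26.8 CPM per kb) but above it per kb of coding sequence (129 against 73.4). The other divergent relatives were low, with 4.04 CPM for Bcl2l12, 0.607 CPM for Bcl2l15 and 0.574 CPM for Bcl2l14.

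Listed partners, genes whose products bind, cut, turn over or regulate members, were mostly abundant. Of 15 partners, 14 were at 1 CPM or more, against 56.2% of all genes with reads, and their median was 7.93 on the log2 CPM scale. The 4 listed 14-3-3 genes, whose proteins retain phosphorylated Bad in the cytosol, ranged from 79.8 CPM per kb for Ywhaz to 421 for Ywhae, with Ywhab and Ywhaq between them, against 4.67 for Bad. The dynein light chains Dynll1 and Dynll2, which tether Bcl2l11 and Bmf, had 53.0 and 104 CPM per kb. Vdac2, a channel that holds Bak1, had 51.0 CPM per kb.

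Genes for the turnover of Mcl1 protein were present as well. The ligase gene Huwe1 had 19.3 CPM per kb, the ligase subunit Fbxw7 5.56 and the deubiquitinase Usp9x 29.9. For Bid, the protease gene Casp8 had 24.2 CPM per kb and the mitochondrial receptor Mtch2 18.4, whereas Gzmb, a protease of killer lymphocytes, had no read. Becn1, an autophagy protein bound by Bcl2, had 20.9 CPM per kb, and Foxo3, a regulator of Bcl2l11, had 7.11.

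Downstream of the outer membrane, 7 of 8 listed genes were at 1 CPM or more, against 56.2% of all genes with reads. Cycs, which encodes the cytochrome c released through the pores, had 133 CPM per kb. Apaf1 and Casp9, which form the apoptosome with it, had 12.8 and 3.75 CPM per kb. Xiap, which encodes an inhibitor of caspases, had 14.9 CPM per kb, and its antagonists Diablo and Htra2 had 7.08 and 9.64. The flavoprotein gene Aifm1 had 17.5 CPM per kb. The nuclease gene Endog was under 1 CPM, at 0.493 CPM.

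**Figure D3:**
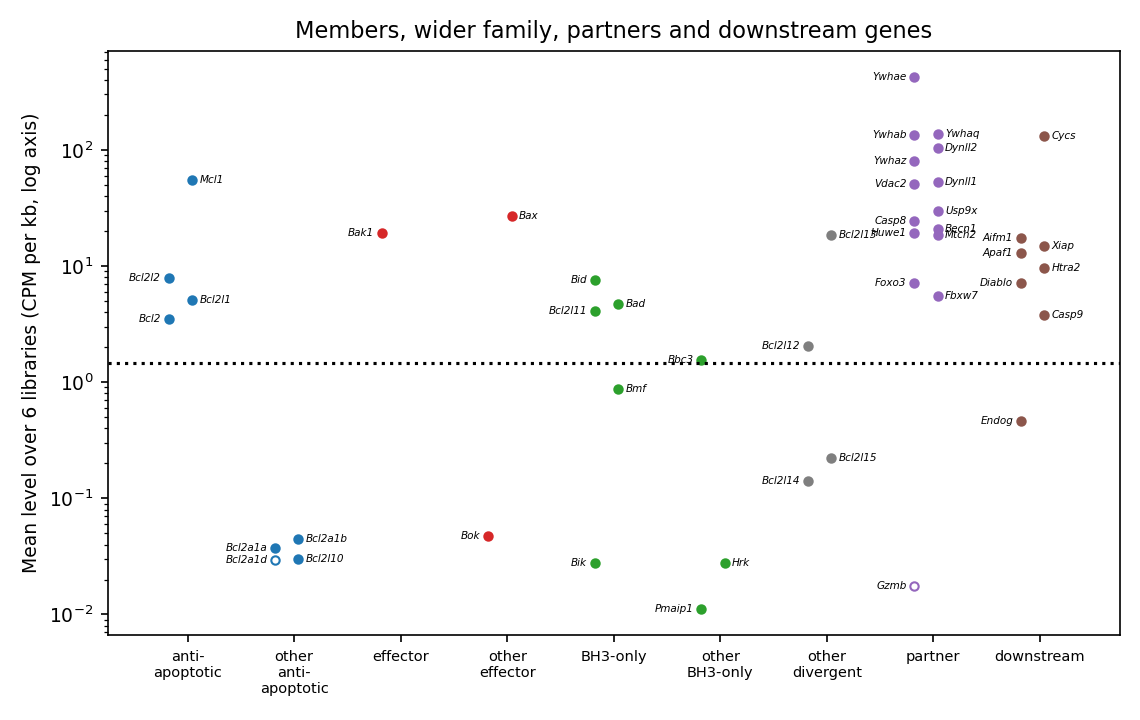
Mean level over the 6 libraries in CPM per kb on a log axis for the 10 members by role, 13 other relatives by role, 15 partners and 8 downstream genes. Open points had no read (Bcl2a1d and Gzmb) and stand only for the added 0.5, and the dotted line is the median of genes with reads and a known length (1.47). All other anti-apoptotic genes lie far below the 4 anti-apoptotic members.

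The members also had features in common that were not used to choose them. All 10 had a coding sequence shorter than the median of 1356 bases over 17508 protein-coding genes with reads, from 450 bases in Bik to 993 in Mcl1. In contrast, 8 of the 10 had a 3′ UTR longer than the median of 829 bases. The 3′ UTR of Bcl2 had 5089 bases and made up 70.8% of its transcript, and that of Bcl2l11 had 4221 bases or 83.8%. The exceptions were Bad with 378 and Bik with 410 bases.

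The pentamer ATTTA, the core of many AU-rich elements that shorten the life of a transcript, was counted in the 3′ UTR on the transcribed strand only. It occurred 15 times in Bcl2, 8 times in Mcl1, 6 times in Bcl2l11 and 4 times in Bcl2l2, and not at all in Bid, Bad or Bak1. At least 1 copy was found in 7 of the 10 members and in 61.3% of all genes, whose median was 1, so the share of members with a copy lay near that of all genes. Whether these elements act in B16F10 cells was not tested.

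**Figure D4:**
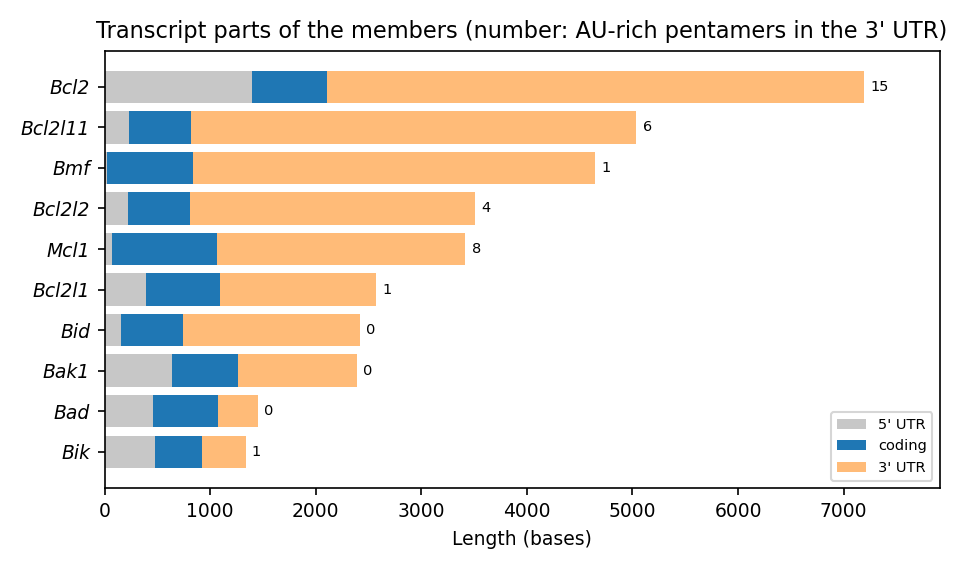
Length in bases of the 5′ UTR, coding sequence and 3′ UTR in the transcript with the longest coding sequence of each member, with the count of AU-rich pentamers in the 3′ UTR at the end of each bar. Coding sequences stay between 450 and 993 bases, whereas the 3′ UTR ranges from 378 bases in Bad to 5089 in Bcl2.

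The libraries carried the markers of the labelled cell type. Of 10 melanocyte genes, 9 were at 1 CPM or more, led by Dct with 7052 CPM, and Oca2 was at 0.924 CPM. Summed levels of listed markers were 24446 CPM for melanocytes, 6.44 CPM for fibroblasts, 1.36 CPM for endothelium, 0.473 CPM for leukocytes and 0.123 CPM for keratinocytes. The 0.5 reads that voom adds make up 0.102 CPM of the keratinocyte sum and 0.127 CPM of the leukocyte sum. The highest markers of the 4 other lists were Pdgfra of fibroblasts with 3.28 CPM, Pecam1 of endothelium with 1.21 CPM, Itgam of leukocytes with 0.271 CPM and Krt1 of keratinocytes with 0.0367 CPM. Of all markers listed, only Krt5 of keratinocytes had no read. Oca2 and Krt5 were named after their values were seen.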

How the data were processed

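Total RNA of B16F10 cells was made into directional libraries and sequenced. According to the methods and the submitters' processing notes, reads were aligned to mm10 with HISAT2 (2.1.0), counted per gene with featureCounts (2.1.1) and analysed with limma-voom (3.58.1). The mean log2 CPM of each gene over all 6 libraries was computed by the authors with voom, which adds 0.5 reads to each count, and was used as deposited. The 5 other numeric columns of the table hold the authors' own comparison of OZO with OLO (fold change, moderated statistic, p-values and log odds) and were not used, so no test of a change was made, as planned for a table of this kind. Protein sequences were not analysed here.

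Genes without reads share the lowest mean, from which the mean (geometric) of scaled library sizes follows. For low genes the mean fixes the product of (2 × reads + 1) over libraries. This product was whole within 0.01 for 100% of 5161 low genes, and its factors gave the possible read totals. The recovery was checked on simulated data. Depth of single libraries is unknown. Intervals took 6 times the geometric mean of reads as the total. Exon, transcript and coding lengths came from GENCODE M21 (GRCm38, the mm10 build) and were found for 23882 of the 24126 genes with an Ensembl identifier. Members and gene lists were chosen with earlier results of these data known. The rule for named genes took all members, genes of the wider family, partner and downstream lists and, of cell markers, each list's summary and highest gene. Some genes of the planned downstream list are not reported here. Alternatives were other lengths, other CPM limits, other sets of genes for the median, subtraction of the 0.5 reads and inclusion of the wider family. Python 3.11.15, pandas 2.3.3, scipy 1.17.1 and biopython 1.88 were used.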

Additional observations from a re-analysis of the deposited data

How the results depend on the processing

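The count of 9 members at 1 CPM or more was 9 with a limit of 0.5 CPM and after subtraction of the 0.5 reads, and 8 with a limit of 10 CPM. Above the median of genes with reads were 9 members, 9 against all genes of the table and 8 per kb, but only 5 against genes at 1 CPM or more, a set whose median is higher (4.98 on the log2 CPM scale). The anti-apoptotic sum over the BH3-only sum, 4.13 per kb of all exons, was 2.92 per kb of the longest transcript, 2.57 per kb of coding sequence, 3.63 without division by length, 3.79 with the wider family and 0.955 without Mcl1. With the wider family it was 2.74 per kb of the longest transcript, 2.45 per kb of coding sequence and 3.47 without division by length. Without Mcl1 it was 0.860 per kb of the longest transcript, 1.09 per kb of coding sequence and 1.18 without division by length. The values without Mcl1 were added after the data had been seen. The median of the 10 members, 4.89 CPM per kb, was 8.45 with the longest transcript, 45.5 with the coding sequence and 4.88 after subtraction of the 0.5 reads. Shorter lengths raise these levels by construction, and the coding length raises genes with long UTRs most. Subtraction of the 0.5 reads kept the 9 members with a counting interval within it, whereas the longest transcript moved 7 and the coding sequence all 9 out of it. Bik, which has no interval, fell from 0.0277 to 0.0117 CPM per kb after subtraction of the 0.5 reads. No paired analysis was possible because the only value used per gene is a mean over all libraries, and for the same reason the fits with DESeq2 size factors, with a replicate block and without single replicates were not run.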
